A study of Mus musculus with 25 samples.

Results

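The genes described here code for subunits of the mitochondrial respiratory chain. They were chosen by name: every gene whose symbol in the platform annotation, on a row with 1 symbol, begins with Nduf followed by a, b, c, s or v and a digit, with Uqcr, or with Cox followed by a digit from 4 to 8, or is Sdha, Sdhb, Sdhc or Sdhd. This gave 64 genes of 19938 in all. By name, 35 belong to complex I, 4 to complex II, 8 to complex III and 17 to complex IV. The product of Ndufa4 is now placed in complex IV, and the count keeps it where its symbol puts it. None of the 13 subunits that the mitochondrial genome itself encodes was listed on an annotated row, so the values below concern nuclear genes only.

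Cells were sorted from the Peyer's patches, the lymphoid tissue of the small intestine, of wild-type female C57BL/6 mice aged 6 to 8 weeks. Each replicate pooled 42 mice and was hybridised to 1 Affymetrix Mouse Gene 1.0 ST array, 25 arrays in all. Untreated conventional dendritic cells (cDC) were CD11b+ (5 arrays; SIRPa+, CD11b intermediate, CD8a-), DN (3 arrays; SIRPa+, CD11b- and CD8a-) or CD8a+ (3 arrays; SIRPa-, CD11b-), all CD11c high, MHCII+, BST2- and CD4-. Untreated LysoMac, the lysozyme-expressing macrophages of the patch, were CD11c high, MHCII low, SIRPa+, BST2+ and CD4+, and either TIM-4- (3 arrays) or TIM-4+ (3 arrays). CD11b+ cDC (3 arrays) and CD8a+ cDC (5 arrays) were also taken 9 h after the mice received R848, a ligand of TLR7. All groups carried the same genotype. The series calls the replicates independent. p-values measure the spread between these pools of mice.

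The respiratory chain sits in the inner mitochondrial membrane and moves electrons from NADH and succinate to oxygen while complexes I, III and IV pump protons. Complex I takes electrons from NADH, complex II is the succinate dehydrogenase of the tricarboxylic acid cycle, complex III passes electrons from ubiquinone to cytochrome c, and complex IV reduces oxygen. The proton gradient drives ATP synthase. Activated dendritic cells and macrophages are known to shift between this respiration and glycolysis, and succinate oxidation at complex II is a known control point in macrophages.

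Nuclear genes of the chain are known targets of NRF1 and of ETS family factors (NRF2, whose subunits are Gabpa and Gabpb1). RefSeq (GRCm38.p6) held a promoter for 51 of the 64 genes. In the 250 bases before the gene start, the NRF1 letters (GCGCA, any 1 base, then GCGC; either strand) were found in 8 of 51 members (15.7%) and in 4.23% of 27025 genes. The ETS letters CCGGAAG (either strand) were also found in 8 of 51 members (15.7%), against 7.83% of genes. Each motif was searched on its own, so matches may overlap. CCAAT (either strand) stood in 39.2% of members and 37.5% of genes. The 4 windows of 60 bases below hold the NRF1 letters, which are in capitals. They come from the members with these letters that fell most among those called lower in CD11b+ cDC after R848. Of the 33 members called lower there that had a promoter, 6 held them. The windows lie on the minus strand of chr2:36049339-36049398 (Ndufa8), chr13:73328483-73328542 (Ndufs6) and chr9:50603894-50603953 (Sdhd), and on the plus strand of chr17:56717677-56717736 (Ndufa11).
Ndufa8: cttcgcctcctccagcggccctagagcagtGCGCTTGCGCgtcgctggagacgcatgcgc
Ndufs6: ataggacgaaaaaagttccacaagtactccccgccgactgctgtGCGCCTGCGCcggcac
Sdhd: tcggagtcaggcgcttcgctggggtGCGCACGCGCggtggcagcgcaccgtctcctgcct
Ndufa11: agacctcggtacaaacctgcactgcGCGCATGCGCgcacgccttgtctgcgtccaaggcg

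Cox6b2, the testis form of a complex IV subunit and the member with the widest range between groups, had no NRF1 or ETS letters in its 250 bases. The 100 bases before its start, on the minus strand of chr7:4753095-4753194, are shown because this gene differed in more comparisons than any other member. The capitals mark CCAAT read on the other strand.
Cox6b2: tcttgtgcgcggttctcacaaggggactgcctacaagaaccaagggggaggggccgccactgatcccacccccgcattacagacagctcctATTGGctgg

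Values are log2 signals. The columns of the deposited table were in 3 row orders (14 untreated CD11b+, DN and LysoMac arrays; 3 untreated CD8a+ arrays; 8 R848 arrays), and the gene names fit the R848 arrays. Rows of the other sets were matched to them in order, and a gene without an accepted match was left out. Of the 64 members, all had values after R848, 52 in the untreated CD11b+, DN and LysoMac set, 53 in the untreated CD8a+ set and 46 in all 25 arrays. Uqcrc2, Uqcrh, Ndufb9, Ndufs4 and Cox6a2 had values only after R848. Comparisons that cross the sets (R848 against untreated, and untreated CD8a+ against CD11b+ cDC) cannot tell the array set apart from the group, so the median over all genes is given beside each.

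In the untreated groups cDC1 and macrophage markers followed the sort. The mean level of 6 cDC1 markers was 9.81 to 9.94 in untreated CD8a+ cDC and 6.32 to 6.56 in CD11b+ and DN cDC, and that of 5 macrophage markers was 7.82 to 9.04 in LysoMac and 4.02 to 5.67 in untreated cDC. Stromal and endothelial markers (8 genes) stood at 6.83 to 7.28 in DN cDC and at 3.90 to 5.35 in the other groups.

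Untreated CD11b+ cDC arrays 4 and 5 stood apart from arrays 1 to 3. Both lay above all of arrays 1 to 3 for 47 of 52 members, with a median difference of 0.477, against 34.7% of all genes and a median of 0.0715. The median over the 46 members with values in every array was 9.02, 9.01 and 9.23 in arrays 1 to 3, and 9.63 and 9.57 in arrays 4 and 5. The mean of the ATP synthase list moved with them, at 10.72, 10.67 and 10.81 in arrays 1 to 3 and 11.24 and 11.16 in arrays 4 and 5. Markers of other cells were also higher there, with means of 5.97 and 5.75 against 5.36 to 5.45 for B cell markers and 5.71 and 5.85 against 5.06 to 5.37 for T cell markers. Their part in the chain gene levels was not tested. Among R848 CD8a+ cDC, arrays 4 and 5 both lay below arrays 1 to 3 for 37 of 64 members (13.7% of all genes), with medians of 8.73, 8.83 and 8.82 in arrays 1 to 3 and 8.51 and 8.43 in arrays 4 and 5. Results that rest on these arrays are given with and without them.

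**Figure D1:**
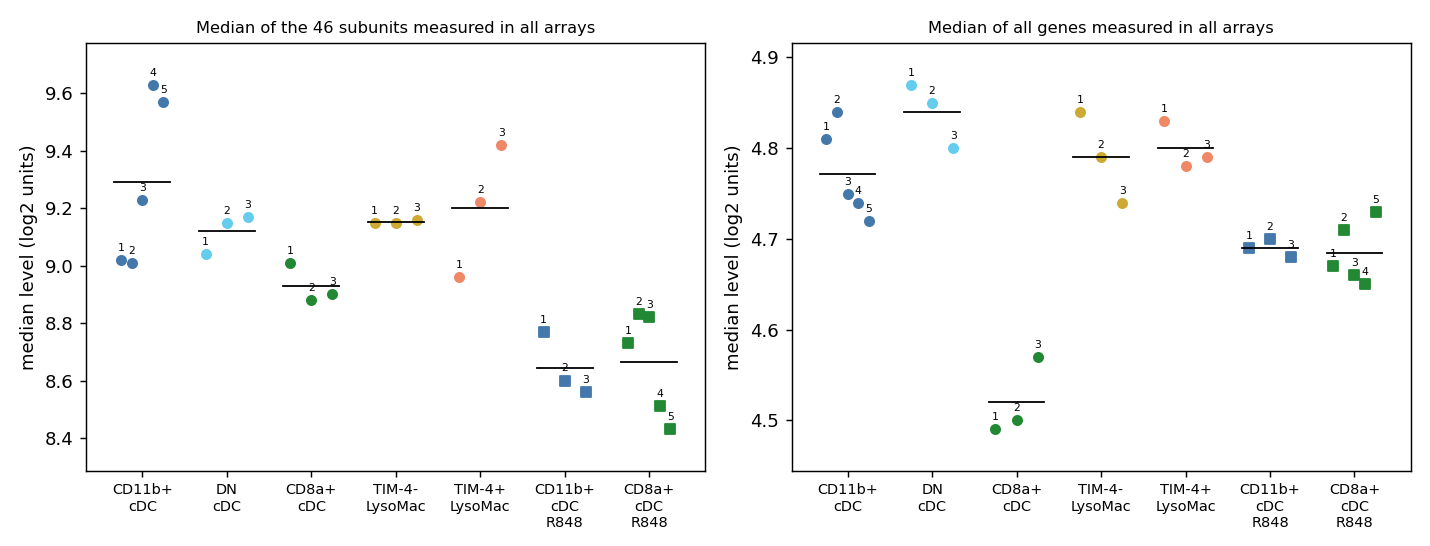
Median log2 level in each array over the 46 subunits with values in all 25 arrays (left) and over all genes with values in all arrays (right); points are arrays with their replicate number, squares are R848 arrays, and lines are group means. Untreated CD11b+ arrays 4 and 5, at 9.63 and 9.57, lie above arrays 1 to 3 for the subunits and not for all genes. For the subunits the R848 arrays of both cDC groups, which form 1 array set, lie below every untreated array. They stand at 8.56 to 8.77 in CD11b+ cDC and 8.43 to 8.83 in CD8a+ cDC.

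The largest shift of the chain genes was between CD11b+ cDC after R848 and untreated CD11b+ cDC. Of the 52 members tested, 36 were called lower and 3 higher (limma, Benjamini-Hochberg adjusted p below 0.05), where 40.7% of the 15756 genes tested were called, 23.2% lower and 17.4% higher. Without untreated arrays 4 and 5 the counts were 25 lower and 3 higher, beside 21.9% and 19.3% of all genes. The median difference was -0.59 for members and -0.03 for all genes, and -0.43 and -0.01 without those arrays. Lower calls came from every complex: 23 of 30 in complex I, 3 of 4 in complex II, 3 of 4 in complex III and 7 of 14 in complex IV. In these mixed extracts of sorted cells, fewer cells of a type and less RNA per cell cannot be told apart. B cell markers rose in the same comparison, 6 of 6, with mean levels (5 genes) of 5.36 to 5.97 untreated and 6.87 to 7.66 after R848, and 4 of 7 plasma cell markers also rose. Of 9 cDC2 markers 6 fell and 1 rose, with means over 8 genes of 6.89 to 7.51 untreated and 5.73 to 6.02 after R848, and of 6 T cell markers 4 fell and 1 rose. Their part in the result was not tested.

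In complex I the members with the largest falls were accessory subunits of the membrane arm and an iron-sulfur protein. Ndufb8, an accessory subunit, read 9.77, 9.87, 9.90, 10.33 and 10.33 in untreated CD11b+ cDC and 8.87, 8.50 and 8.52 after R848. The groups did not overlap, and the lowest untreated array lay above the highest R848 array. It fell by 1.41 ± 0.16 (SE; limma adjusted p = 5.06e-07). Ndufb11, another accessory subunit, read 8.34, 8.33, 8.26, 9.32 and 8.92 untreated and 7.47, 7.00 and 7.35 after R848, and fell by 1.36 ± 0.18. Ndufs7, which carries the iron-sulfur cluster next to ubiquinone, read 7.90, 7.99, 7.90, 8.91 and 9.09 untreated and 7.23, 7.00 and 6.93 after R848, and fell by 1.30 ± 0.22. In all 3 genes the untreated arrays 4 and 5 were the highest, and the R848 arrays were below every untreated array. Without arrays 4 and 5 the differences were -1.22 for Ndufb8, -1.03 for Ndufb11 and -0.87 for Ndufs7, each still called. Ndufb2 differed by -1.19 ± 0.24. Core subunits did not all follow: Ndufv1, the NADH-binding flavoprotein, differed by -0.68 and Ndufs3 by -1.06, both called, whereas Ndufs1 differed by 0.03 and was not called. Without untreated arrays 4 and 5, Ndufs3 stayed called (-0.73) and Ndufv1 did not (-0.57; limma adjusted p = 0.0509).

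Ndufv2, an iron-sulfur core subunit that works beside Ndufv1, went the other way. It read 8.69, 8.62, 8.86, 9.06 and 8.90 untreated and 9.36, 9.04 and 9.12 after R848, so untreated array 4 lay inside the R848 range. The rise was 0.35 ± 0.12 (limma adjusted p = 0.0264) and 0.45 without untreated arrays 4 and 5. Its call ended without untreated array 1 (0.32) or 2 (0.30) or R848 array 1 (0.26).

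In complex II, 3 of 4 subunits were called lower and Sdha was not. Sdha, the flavoprotein that oxidises succinate, read 8.99, 9.01, 8.68, 9.27 and 9.15 untreated and 8.88, 9.04 and 8.91 after R848, and its difference of -0.08 ± 0.10 was not called. Sdhc, a membrane anchor, read 8.69, 8.64, 8.64, 9.62 and 9.51 untreated and 7.99, 8.01 and 7.82 after R848. Sdhd, the other anchor, read 7.61, 7.66, 7.75, 8.48 and 8.40 untreated and 7.27, 7.24 and 6.87 after R848. Both anchors were below every untreated array after R848, while Sdha overlapped. Sdhc fell by 1.08 ± 0.22 (limma adjusted p = 0.000477) and Sdhd by 0.85 ± 0.18 (adjusted p = 0.000659). Without arrays 4 and 5 the differences were -0.72 and -0.55, both still called. Sdhb, the iron-sulfur subunit between them, fell by 0.61 ± 0.17, and its call ended without R848 array 1 (-0.43).

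In complex III, Uqcrq, a small subunit beside cytochrome b, had the largest fall. Its levels were 10.07, 9.98, 10.04, 10.61 and 10.49 untreated and 9.08, 8.59 and 8.77 after R848. Uqcr10, a small subunit at the Rieske protein, read 10.72, 10.65, 10.76, 11.50 and 11.35 untreated and 9.83, 9.83 and 9.56 after R848. For both genes every R848 array was below every untreated array. The falls were 1.43 ± 0.16 (limma adjusted p = 3.22e-07) and 1.25 ± 0.16 (adjusted p = 1.72e-06), and the differences were -1.22 and -0.97 without arrays 4 and 5. Uqcrfs1, the Rieske iron-sulfur protein, fell by 0.59 ± 0.18. It differed by -0.28 without arrays 4 and 5, and its call ended without R848 array 2 (-0.46). Uqcrb, which contacts ubiquinone, differed by -0.04 and was not called.

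Complex IV held both the deepest fall and most of the rises. Cox6b2 fell by 1.90 ± 0.27. Its common form Cox6b1 read 12.25, 12.09, 12.34, 12.59 and 12.42 untreated and 11.74, 11.60 and 11.71 after R848, without overlap, and fell by 0.65 ± 0.09. Cox5b fell by 0.55 ± 0.11 and Cox7a2 by 0.54 ± 0.14. Cox7a2 differed by -0.36 without untreated arrays 4 and 5 and stayed called. Cox6c differed by -0.02 and was not called. Cox4i2, the lung and hypoxia form of subunit IV, rose by 0.39 ± 0.12 and Cox8b, a muscle form, by 0.26 ± 0.10, both at low levels (means of 4.54 and 4.13 after R848). The Cox8b call ended without R848 array 1 or 2 or any of untreated arrays 1 to 4 (0.21 to 0.26). Cox7a1 (0.21 ± 0.31), Cox8c (0.05 ± 0.09) and Ndufa4l2 (-0.16 ± 0.13) were not called.

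**Figure D2:**
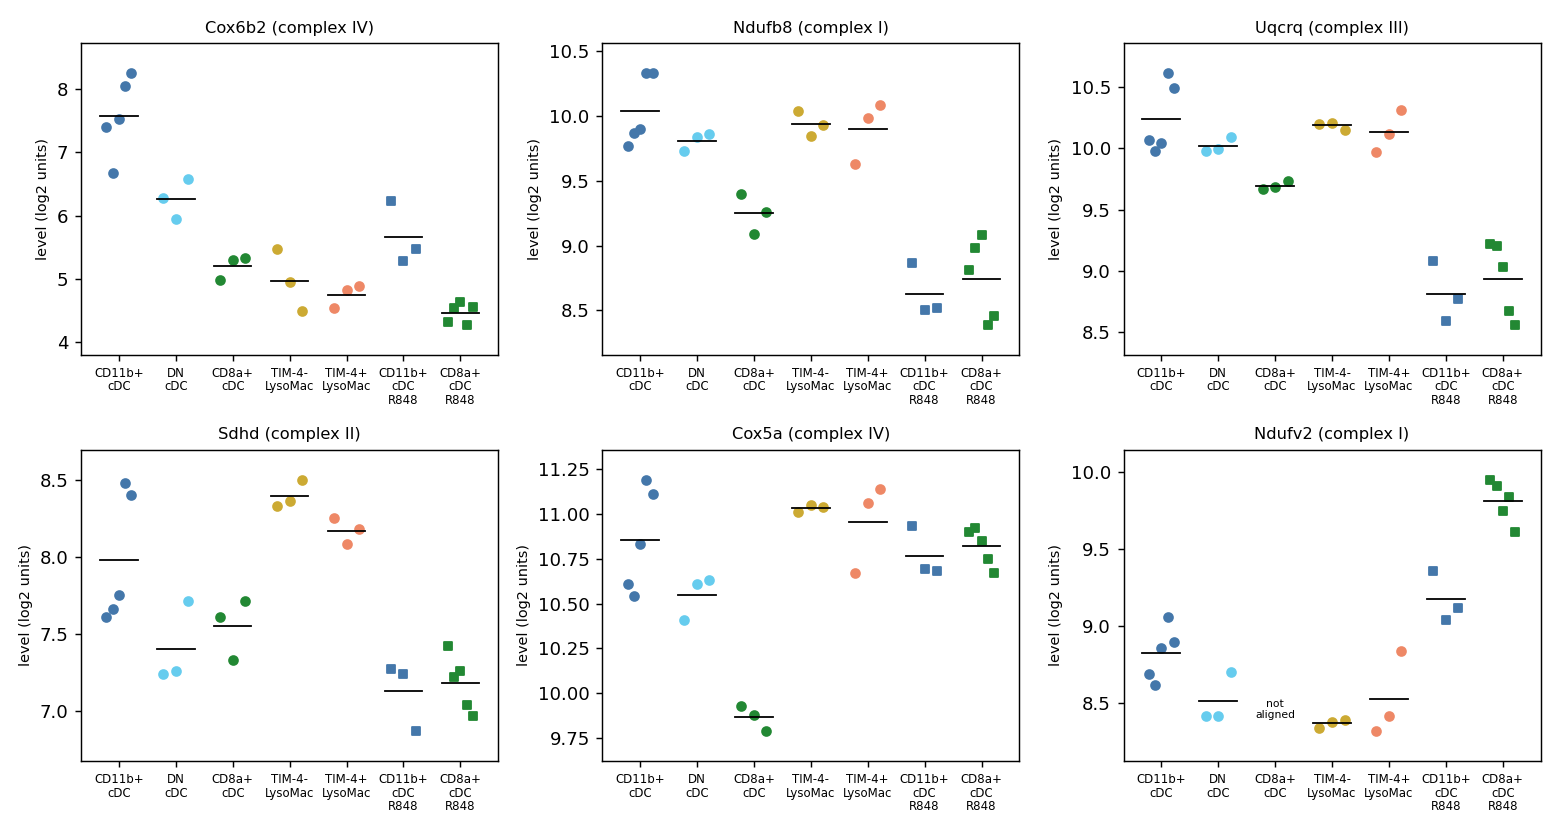
Log2 level of 6 subunits in every array by group, with squares for R848 arrays and lines for group means; each panel has its own axis, and levels are not to be compared between panels. Ndufb8, Uqcrq and Sdhd lie lower in all R848 CD11b+ arrays than in any untreated CD11b+ array, Cox6b2 is highest in untreated CD11b+ cDC, and Ndufv2 (no accepted match in untreated CD8a+ cDC) is highest in R848 CD8a+ cDC.

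In CD8a+ cDC the chain genes also moved mostly down after R848, by less at the median. Of 53 members tested, 21 were called lower and 8 higher (limma adjusted p below 0.05), where 56.5% of the 15794 genes tested were called, 14.8% lower and 41.7% higher. The median difference was -0.28 for members and 0.18 for all genes. Shifting all arrays to a common median moved the median of all genes to 0.02 and that of the members to -0.44. It gave 27 members lower and 2 higher, beside 20.7% and 21% of all genes. Cyclic loess gave 25 lower and 2 higher of 46, beside 20.8% and 21.6% of all genes. Without R848 arrays 4 and 5, 15 were lower and 9 higher, beside 13% and 36.3% of all genes. By complex, 15 of 29 members of complex I, none of 4 of complex II, 3 of 5 of complex III and 3 of 15 of complex IV were called lower. In complex IV 5 of 15 (33.3%) were called higher, a smaller share than the 41.7% of all genes. B cell markers rose here too (4 of 5 called), as did 5 of 7 plasma cell and 5 of 5 T cell markers. Of 8 cDC1 markers 7 fell, with means over 6 genes of 9.81 to 9.94 untreated and 7.68 to 8.21 after R848, and the mean of 2 plasmacytoid DC markers stood at 4.14 to 4.37 and at 7.38 to 7.88. The part of these markers in the result was not tested.

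The complex I members with the largest falls in CD8a+ cDC were Ndufs3, a core subunit, and Ndufa5, an accessory one. Ndufs3 read 8.25, 8.53 and 8.40 untreated and 7.14, 7.77, 7.55, 7.17 and 6.63 after R848. Ndufa5 read 8.40, 8.77 and 8.31 untreated and 7.47, 7.30, 7.50, 7.46 and 7.11 after R848. Neither gene's groups overlapped. Ndufs3 fell by 1.14 ± 0.23 (limma adjusted p = 0.000328) and Ndufa5 by 1.13 ± 0.17 (adjusted p = 1.14e-05). Ndufc2 (mean 10.41 untreated and 9.41 after R848) and Ndufb5 (-0.96 ± 0.21) were also called. All 4 remained called without R848 arrays 4 and 5, at -0.91, -1.07, -0.77 and -0.76. Ndufa11 (0.47 ± 0.19), Ndufa4l2 (0.40 ± 0.13) and Ndufv3 (0.31 ± 0.09) were called higher on the deposited scale. None of these 3 was called with arrays at a common median (0.31, 0.23 and 0.15) or after cyclic loess. The Ndufa11 call also ended without any 1 untreated array or R848 array 1, 2 or 3 (0.39 to 0.51), and that of Ndufa4l2 without untreated array 1 (0.30) or without R848 arrays 4 and 5 (0.33).

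No complex II subunit was called in CD8a+ cDC after R848: the differences were -0.08 ± 0.10 for Sdha, -0.15 ± 0.17 for Sdhb, -0.46 ± 0.22 for Sdhc and -0.37 ± 0.18 for Sdhd. With arrays at a common median or after cyclic loess, Sdhc (-0.63 and -0.56) and Sdhd (-0.53 and -0.41) were called lower. In complex III, Uqcrq read 9.67, 9.68 and 9.73 untreated and 9.22, 9.20, 9.03, 8.67 and 8.56 after R848, without overlap, and fell by 0.76 ± 0.16. Uqcr11 fell by 0.92 ± 0.29 and Uqcrc1, a core protein, by 0.60 ± 0.20. Without R848 arrays 4 and 5 these differences were -0.54 for Uqcrq, -0.50 for Uqcr11 and -0.32 for Uqcrc1, each called. The Uqcr11 call ended without untreated array 1 (-0.90), and the Uqcrc1 call without untreated array 1 (-0.63) or 3 (-0.52) or R848 array 4 (-0.54).

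Cox5a, a nuclear subunit close to the catalytic core of complex IV, rose in CD8a+ cDC. It read 9.93, 9.88 and 9.79 untreated and 10.90, 10.92, 10.85, 10.75 and 10.67 after R848, so every R848 array was above every untreated one. The rise was 0.95 ± 0.13 (limma adjusted p = 2.99e-06). It was called with arrays at a common median and after cyclic loess, and was 1.02 without R848 arrays 4 and 5. Cox7a1, the heart and muscle form of subunit VIIa, rose by 0.88 ± 0.31, Cox8b by 0.44 ± 0.10 and Cox4i2 by 0.37 ± 0.12. Cox8b (4.01 to 4.23) and Cox4i2 (4.44 to 4.75) stood at low levels even after R848. The Cox7a1 call ended at a common median (0.71), without untreated array 1 or 3, or without R848 array 2 or 3 (0.73 to 0.87). The Cox4i2 call ended at a common median (0.21), after cyclic loess (0.16) or without untreated array 1 (0.31), and the Cox8b call after cyclic loess (0.22). Cox7a2l fell by 0.54 ± 0.09, Cox6b2 by 0.73 ± 0.27 and Cox8c by 0.32 ± 0.09. The Cox6b2 call ended without untreated array 2 or 3 or R848 array 4 (-0.67 to -0.69) and without R848 arrays 4 and 5 together (-0.70), and that of Cox8c without untreated array 3 (-0.22). Cox7b2 differed by 0.04 ± 0.07 and was not called.

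Of the 46 members measured on both sides, 32 were called lower in CD11b+ cDC and 16 in CD8a+ cDC after R848. The 14 called lower in both (43.8% of the first list and 87.5% of the second) were 30.4% of the 46, against 9.22% of the 13254 genes tested in both. Over all genes, those lower in both were 39.2% and 63.7% of the lower calls in CD11b+ and CD8a+ cDC. Without untreated CD11b+ arrays 4 and 5 and R848 CD8a+ arrays 4 and 5, 5 members were lower in both, Ndufa8, Ndufb11, Ndufb5, Ndufs3 and Uqcrq (10.9% of members, 7.31% of genes). Both responses use arrays of the same R848 set.

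**Figure D3:**
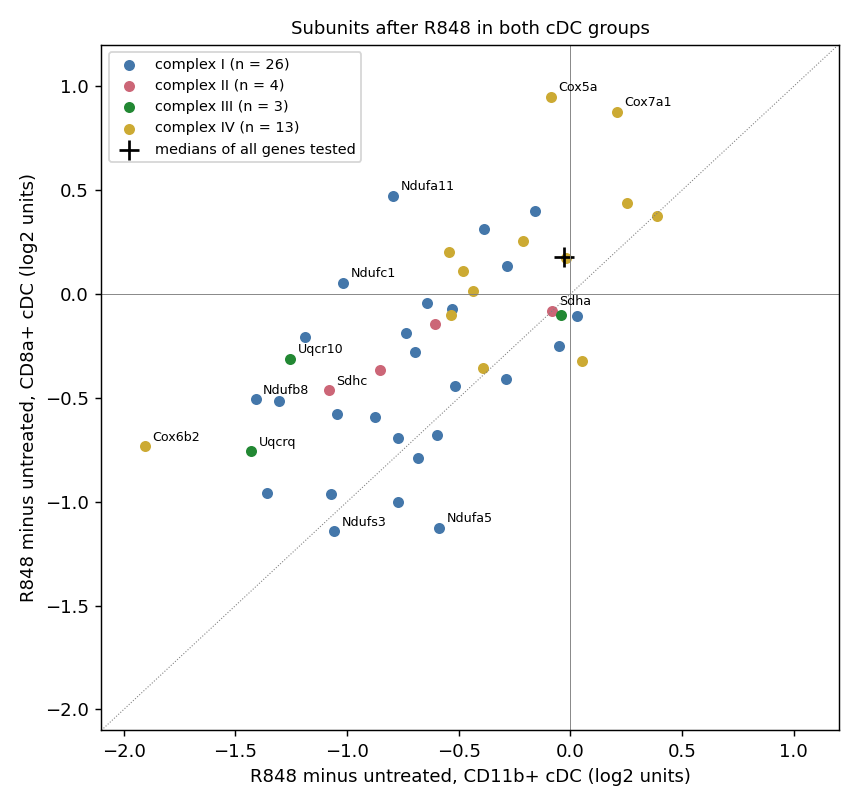
Log2 difference after R848 in CD11b+ cDC (horizontal) and CD8a+ cDC (vertical) for the 46 subunits measured in both, coloured by complex; the cross marks the medians of all genes tested, -0.03 and 0.18, and the dotted line marks equal values. Most complex I and III subunits lie below 0 on both axes, and Cox5a lies at 0.95 in CD8a+ cDC and close to 0 in CD11b+ cDC.

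The responses of both cDC groups were compared with the difference between them, CD8a+ minus CD11b+. This equals the CD8a+ minus CD11b+ difference after R848 minus that in untreated cells, and the untreated difference crosses array sets. Of 46 members, 13 had a higher and 1 a lower response in CD8a+ cDC (limma adjusted p below 0.05), where 26.9% and 5.96% of the 13254 genes tested were called so. The median was 0.44 for members and 0.21 for all genes. Scaling changed this comparison. With arrays at a common median 6 were higher and 2 lower (members 0.20, all genes -0.03), beside 9.36% and 11.8% of all genes. Cyclic loess gave 7 higher and 3 lower, beside 11.1% and 11.8%. Without untreated CD11b+ arrays 4 and 5 the counts were 10 higher and 2 lower, beside 27.3% and 7.63%. Without R848 CD8a+ arrays 4 and 5 they were 17 higher and none lower, beside 24.5% and 5.33%. Leaving out R848 CD11b+ array 2 left 9 members called, counting both directions.

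Among the members with a higher response in CD8a+ cDC were Ndufa11, a membrane-arm subunit of complex I (1.27 ± 0.26), Ndufc1 (1.07 ± 0.26), Cox5a (1.04 ± 0.18), Uqcr10 (0.94 ± 0.22) and Cox5b (0.75 ± 0.15). All 5 stayed called at a common median, after cyclic loess and without either pair of arrays. Ndufc1 read 9.36, 9.07, 9.69, 10.21 and 9.95 in untreated CD11b+ cDC and 8.71, 8.61 and 8.61 after R848. In CD8a+ cDC it read 8.74, 8.85 and 8.75 untreated and 9.03, 8.92, 8.86, 8.97 and 8.40 after R848. For Ndufc1 every untreated CD11b+ array was above every array of the other 3 groups. Cox5a was unlike it: untreated CD11b+ cDC (10.54 to 11.19) overlapped R848 CD11b+ (10.68 to 10.93) and R848 CD8a+ cDC (10.67 to 10.92). Untreated CD8a+ cDC lay below all of these (9.79 to 9.93). Ndufb8 (0.90 ± 0.23) was not called at a common median (0.66). Cox6b2 (1.17 ± 0.39), Ndufb2 (0.98 ± 0.34), Uqcrq (0.67 ± 0.22) and Ndufa4l2 (0.56 ± 0.19) were not called under either scaling, and neither was Cox6a1 (0.47 ± 0.14). Single arrays ended the calls of Cox6b2 (untreated CD8a+ array 1, R848 CD11b+ array 2 or 3; 0.98 to 1.07), Uqcrq (the same arrays; 0.56 to 0.66), Ndufa4l2 (untreated CD8a+ array 1, R848 CD11b+ array 1 or 2; 0.45 to 0.54) and Ndufb2 (untreated CD11b+ array 3, 4 or 5, untreated CD8a+ array 2 or 3, R848 CD11b+ array 2 or 3, R848 CD8a+ array 1, 2 or 3; 0.84 to 1.01). Without untreated CD11b+ arrays 4 and 5, Cox6b2 (0.79), Ndufb2 (0.67) and Uqcrq (0.46) were not called, and without R848 CD8a+ arrays 4 and 5, Ndufa4l2 (0.48) and Cox8c (-0.37) were not. The lower response of Cox8c (-0.38 ± 0.13) also lost its call without untreated CD11b+ array 2, untreated CD8a+ array 3 or R848 CD11b+ array 2 or 3 (-0.27 to -0.38). Sdha (0.00 ± 0.15), Sdhb (0.46 ± 0.24), Sdhc (0.62 ± 0.31), Sdhd (0.49 ± 0.25), Cox4i2 (-0.02 ± 0.17), Cox7a1 (0.67 ± 0.44) and Cox8b (0.18 ± 0.14) were not called.

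Untreated CD8a+ and CD11b+ cDC were compared across array sets. Of 46 members, 22 were called lower and 1 higher (limma adjusted p below 0.05), against 38.6% and 8.63% of the 13254 genes tested. The median was -0.43 for members and -0.19 for all genes. This comparison shares its untreated CD11b+ arrays with the R848 comparison above. It also enters the difference of responses with its sign turned. After R848 the median CD8a+ minus CD11b+ difference was -0.01 over 64 members. Members named for the difference of responses and again here are therefore not separate results. Without arrays 4 and 5, 16 of 46 were lower and 1 higher, beside 34.7% and 10.3% of all genes, with a median of -0.20 beside -0.16 for all genes. A common median gave 13 lower and 2 higher with all genes at 0.06, beside 14.7% and 22.6% of all genes. Cyclic loess gave 13 lower and 6 higher, beside 18.3% and 18.1%. Among the members called lower under every one of these settings were Cox5a (-0.99 ± 0.13), Cox5b (-0.66 ± 0.11), Ndufa11 (-1.12 ± 0.19), Ndufb3 (-0.92 ± 0.20), Ndufc1 (-0.88 ± 0.18), Ndufs7 (-0.85 ± 0.22), Uqcr10 (-0.72 ± 0.16) and Cox6b2 (-2.37 ± 0.27). Cox5a read 10.61, 10.54, 10.83, 11.19 and 11.11 in CD11b+ cDC and 9.93, 9.88 and 9.79 in CD8a+ cDC, without overlap. Ndufs7 differed by -0.42 without arrays 4 and 5. Uqcrq (-0.55 ± 0.16), Cox4i1 (-0.52 ± 0.13), Ndufa4l2 (-0.52 ± 0.13) and Sdhc (-0.55 ± 0.22) were called on the deposited scale and under neither rescaling. Sdhc (-0.18) and Uqcrq (-0.34) were also not called without arrays 4 and 5, and the Sdhc call ended without untreated CD11b+ array 4 or 5 or CD8a+ array 1 or 2 (-0.40 to -0.55). Cox8c was higher by 0.31 ± 0.09 and lost its call without CD8a+ array 3 (0.21). Sdha (-0.01 ± 0.10), Sdhb (-0.17 ± 0.17), Sdhd (-0.43 ± 0.18), Cox4i2 (0.07 ± 0.12), Cox7a1 (-0.63 ± 0.31) and Cox8b (-0.20 ± 0.10) were not called. Cox4i2 was called higher at a common median (0.32) and after cyclic loess (0.29), and Sdha after cyclic loess (0.25).

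After R848 both cDC groups lay in 1 array set, all 64 members had values, and few differed. CD8a+ against CD11b+ cDC gave 1 member higher and 1 lower (limma adjusted p below 0.05), where 5.72% and 6.62% of the 19938 genes tested were called higher and lower. The median difference was -0.01 for members and 0.03 for all genes. Ndufv2 read 9.95, 9.91, 9.75, 9.84 and 9.61 in CD8a+ and 9.36, 9.04 and 9.12 in CD11b+ cDC, without overlap, a difference of 0.64 ± 0.12 (adjusted p = 0.000912). Cox6b2 read 4.32, 4.54, 4.64, 4.28 and 4.56 in CD8a+ and 6.23, 5.29 and 5.47 in CD11b+ cDC, also without overlap, a difference of -1.20 ± 0.27 (adjusted p = 0.00425). Both stayed called without CD8a+ arrays 4 and 5, at 0.70 and -1.17. Cyclic loess needed values in all sets and so left out Ndufv2. It gave 5 lower members of 46 (Cox6b2, Ndufa5, Ndufb5, Ndufc2 and Ndufs3) and none higher, beside 6.68% and 6.29% of all genes. No complex II or III member was called with all arrays. Uqcr11, of complex III, was called higher without CD8a+ arrays 4 and 5 (0.73; limma adjusted p = 0.0303). The 4 complex II differences ran from 0.00 for Sdha to 0.29 ± 0.17 for Sdhb. The restricted forms Ndufa4l2 (0.03 ± 0.13), Cox4i2 (0.06 ± 0.12), Cox6a2 (0.25 ± 0.11), Cox7a1 (0.04 ± 0.31), Cox7b2 (0.02 ± 0.07), Cox8b (-0.01 ± 0.10) and Cox8c (-0.07 ± 0.09) were not called either.

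**Figure D4:**
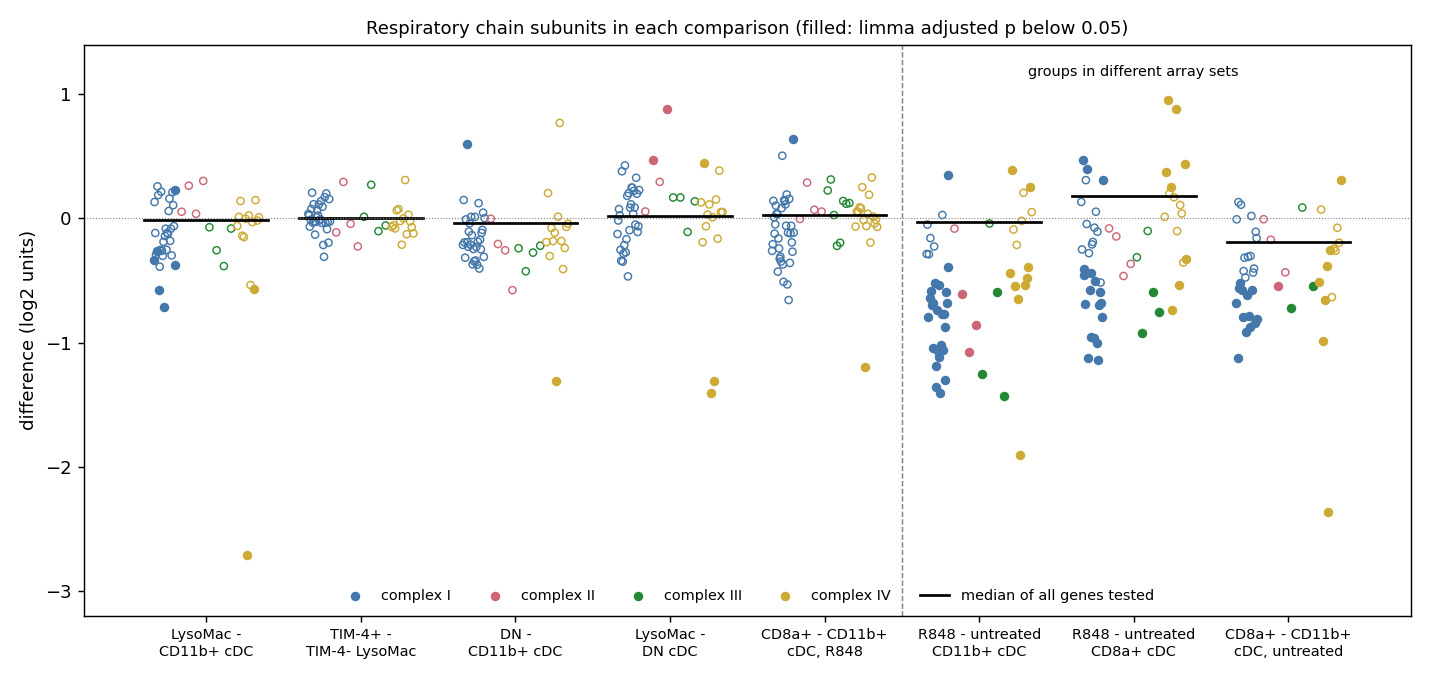
Log2 difference of every measured subunit in 8 comparisons, coloured by complex, filled where limma called it (adjusted p below 0.05), with the median of all genes tested as a black line; comparisons right of the dashed line set groups of different array sets beside each other. Filled points are sparse among the first 5 comparisons and dense in R848 against untreated CD11b+ cDC, where 39 of 52 were called, and Cox6b2 is the lowest point in 6 of the 8 comparisons.

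Among the untreated CD11b+, DN and LysoMac groups, which share 1 array set, few chain genes had group means far apart. The typical member nevertheless spread no less than the typical gene. The range of the 4 group means exceeded 1 log2 unit in 2 of 52 members, Cox6b2 (2.82) and Cox7a1 (1.46), and in 11.1% of 15756 genes. The median range was 0.327 for members and 0.278 for all genes, beside a median within-group SD of 0.225 and 0.169.

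Cox6b2 stood highest in untreated CD11b+ cDC. It read 7.40, 6.67, 7.52, 8.04 and 8.24 there, and 6.28, 5.94 and 6.57 in DN cDC. In LysoMac it read 5.47, 4.95 and 4.49 (TIM-4-) and 4.55, 4.82 and 4.89 (TIM-4+). The untreated CD8a+ arrays were at 4.98, 5.30 and 5.33. No untreated group overlapped CD11b+ cDC, DN cDC came next, TIM-4- LysoMac overlapped both TIM-4+ LysoMac and CD8a+ cDC, and every TIM-4+ array lay just below the CD8a+ arrays. LysoMac differed from CD11b+ cDC by -2.71 ± 0.23 (limma adjusted p = 2.40e-09; -2.33 without CD11b+ arrays 4 and 5). DN cDC differed from CD11b+ cDC by -1.31 ± 0.27 (adjusted p = 0.0053) and LysoMac from DN cDC by -1.40 ± 0.27 (adjusted p = 0.000284).

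LysoMac against CD11b+ cDC gave 7 members lower and 1 higher of 52 (limma adjusted p below 0.05), against 15.7% and 13.6% of 15756 genes. The median was -0.08 for members and -0.01 for all genes. The direction over the members depended on the arrays and the scale. Without CD11b+ arrays 4 and 5, 8 were higher and 2 lower, beside 12.6% and 11.6% of all genes. The median was then 0.09, and 3 of the 8 calls were shared. Cyclic loess gave 16 higher and 4 lower of 46, beside 15.2% and 13.8%, with a median of 0.18. A common median gave none higher and 6 lower, beside 12.5% and 16.2%. Cox6b2 and Ndufb3, an accessory subunit of complex I, were called lower in each of these. Ndufb3 read 7.28, 7.08, 7.71, 7.95 and 7.68 in CD11b+ cDC, 6.95, 6.77 and 6.61 in TIM-4- and 6.57, 6.77 and 7.32 in TIM-4+ LysoMac, and 1 TIM-4+ array lay inside the CD11b+ range. The difference was -0.71 ± 0.17 (adjusted p = 0.00217; -0.53 without arrays 4 and 5). Ndufa6 (-0.58 ± 0.16), Cox7b (-0.57 ± 0.14) and Ndufv2 (-0.37 ± 0.10) were called with all arrays and not without arrays 4 and 5 (-0.32, -0.31 and -0.27). Ndufv3 (0.23 ± 0.08) was called with all arrays and without arrays 4 and 5 (0.33), and lost its call without any of 6 single arrays (0.19 to 0.23). Those 6 were CD11b+ arrays 1, 2 and 3, TIM-4- arrays 1 and 3, and TIM-4+ array 3. Ndufa1 (-0.34 ± 0.12) lost its call without CD11b+ array 3, 4 or 5, any TIM-4- array or TIM-4+ array 1 (-0.22 to -0.36), and stood at -0.02 after cyclic loess. Sdha (0.05 ± 0.09), Sdhb (0.26 ± 0.14), Sdhc (0.04 ± 0.18), Sdhd (0.30 ± 0.15), Ndufa4l2 (0.26 ± 0.11), Cox4i2 (0.01 ± 0.10), Cox7a1 (-0.54 ± 0.26), Cox8b (-0.02 ± 0.08) and Cox8c (0.01 ± 0.08) were not called. Cyclic loess called Sdha (0.29), Sdhb (0.46) and Sdhd (0.45) higher in LysoMac, and Sdhd was also called higher without CD11b+ arrays 4 and 5 (0.61).

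LysoMac against DN cDC, a comparison without the CD11b+ arrays, gave 3 members higher and 2 lower of 52, against 11.9% and 13.2% of 15756 genes. Sdhd read 8.33, 8.36 and 8.50 in TIM-4- and 8.25, 8.08 and 8.18 in TIM-4+ LysoMac, and 7.24, 7.26 and 7.71 in DN cDC. Every LysoMac array was above every DN array, by 0.88 ± 0.17 at the mean (limma adjusted p = 0.000435). Sdhb was higher by 0.47 ± 0.16 with overlap. Cox5a was higher by 0.44 ± 0.12, with 10.67 to 11.14 in LysoMac and 10.41 to 10.63 in DN cDC. Cox7a1 read 6.31, 6.49 and 7.18 in DN cDC and 4.82 to 6.16 in LysoMac, without overlap, and LysoMac differed from DN cDC by -1.31 ± 0.30 (adjusted p = 0.00195). The Cox7a1 difference runs with the stromal and endothelial markers, of which 9 of 11 were lower in LysoMac than in DN cDC, and with the muscle markers, of which 4 of 6 were lower. Their part in it was not tested. Leaving out DN array 1 left 3 calls and ended those of Cox5a (0.37) and Sdhb (0.38), and the Sdhb call also ended without DN array 2 (0.44), TIM-4- array 3 (0.42) or TIM-4+ array 3 (0.43). Cyclic loess gave 13 higher and 3 lower of 46, beside 12.7% and 12.4% of all genes, with Ndufa4l2 among the lower (-0.36). Sdha (0.06 ± 0.10), Sdhc (0.29 ± 0.21), Ndufa4l2 (-0.34 ± 0.13), Cox4i2 (-0.19 ± 0.11), Cox8b (0.05 ± 0.09) and Cox8c (0.05 ± 0.09) were not called.

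DN against CD11b+ cDC gave 1 member higher and 1 lower of 52, where 4.22% of 15756 genes were called, 2.57% higher and 1.65% lower. The median was -0.19 for members and -0.04 for all genes. The member called lower was Cox6b2, and the member called higher was Ndufa4l2, a target of hypoxia-inducible factor that takes the place of Ndufa4 (0.60 ± 0.13; limma adjusted p = 0.00833). Ndufa4l2 read 4.59, 4.59 and 4.85 in DN cDC and 4.25, 4.32, 4.14, 3.84 and 3.82 in CD11b+ cDC, without overlap and at a low level in both. Without CD11b+ arrays 4 and 5 neither was called (-0.93 for Cox6b2 and 0.44 for Ndufa4l2), and the median of the members was 0.03. Leaving out DN array 2 ended the Cox6b2 call (-1.15), and leaving out DN array 3 ended the Ndufa4l2 call (0.51). Stromal and endothelial markers were higher in DN cDC in 10 of 11 genes. Epithelial markers (9 genes) had means of 6.70 to 7.84 in DN and 5.03 to 7.37 in CD11b+ cDC. The part of either list in these differences was not tested. Cox7a1 (0.77 ± 0.31), Sdhd (-0.58 ± 0.18), Sdhc (-0.26 ± 0.22), Sdhb (-0.21 ± 0.17), Sdha (0.00 ± 0.10), Cox4i2 (0.20 ± 0.12), Cox8b (-0.07 ± 0.10) and Cox8c (-0.04 ± 0.09) were not called. After cyclic loess Sdhd was called lower too (-0.51; limma adjusted p = 0.0473).

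TIM-4+ and TIM-4- LysoMac gave no called member of 52, where 0.451% of 15756 genes were called by limma. No member had an unadjusted p below 0.05. Differences ran from -0.31 to 0.31, with a median of -0.02 for members and 0.00 for all genes. Sdhd read 8.08 to 8.25 in TIM-4+ and 8.33 to 8.50 in TIM-4- arrays, and Sdha 8.90 to 9.08 and 9.11 to 9.15. Their differences were -0.23 ± 0.20 and -0.11 ± 0.12, and neither was called.

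Other genes of oxidative metabolism were read from lists, whose counts stand beside the shares of all genes called after R848: 23.2% lower and 17.4% higher in CD11b+ cDC, 14.8% and 41.7% in CD8a+ cDC. The ATP synthase list fell with the chain after R848 in CD11b+ cDC, with 9 of 13 genes called lower and none higher, among them Atp5g1 and Atp5g2, which code for its rotor ring (-2.18 ± 0.25 and -1.10 ± 0.27), Atp5d (-1.53 ± 0.20) and Atp5o (-1.08 ± 0.16). Without untreated arrays 4 and 5, 7 of 13 were lower and none higher, with Atp5g1 at -1.80 and the other 3 named genes still called. In CD8a+ cDC 3 of 12 were lower and 2 higher, with Atp5g1 at -0.90 ± 0.25, and without R848 arrays 4 and 5 none was lower and 3 were higher (Atp5g1 -0.55, not called). Tricarboxylic acid cycle genes were lower in 9 of 18 and higher in 2 in CD11b+ cDC, also without arrays 4 and 5, and lower in 10 of 19 and higher in 3 in CD8a+ cDC (8 and 4 without R848 arrays 4 and 5). Fh1, fumarate hydratase, fell by 1.10 ± 0.16 and 1.95 ± 0.16 in the 2 groups. Assembly factors, which build the complexes, were lower in 12 and higher in 4 of 34 in CD11b+ cDC (8 and 3 without arrays 4 and 5). The complex I factors Ndufaf7 (-1.90 ± 0.15) and Ndufaf4 (-1.71 ± 0.16) and the complex III factor Bcs1l (-1.32 ± 0.18) were among them. In CD8a+ cDC 11 of 31 were lower and 5 higher (9 and 5 without R848 arrays 4 and 5). Sdhaf1, which helps insert iron-sulfur clusters into Sdhb, rose by 2.44 ± 0.18 there, the largest rise on the list, while Sdhb itself was not called. Ndufab1, a chain protein outside the naming rule, fell by 1.86 ± 0.28 in CD11b+ cDC, and Etfb, the electron carrier of fatty acid oxidation, by 1.73 ± 0.24. In CD8a+ cDC Etfb fell by 2.20 ± 0.24.

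Among the regulators of mitochondrial biogenesis, 4 of 15 were higher and 5 lower in CD11b+ cDC after R848, and 7 of 16 higher and 5 lower in CD8a+ cDC. Without the same pairs of arrays the counts were 5 higher and 4 lower, and 6 higher and 5 lower. Beside the shares of all genes given above, nothing is read from these counts. Sirt1, a deacetylase, rose by 1.12 ± 0.20 and 3.03 ± 0.20, and Pprc1, a coactivator of NRF1, differed by -1.19 ± 0.16 in CD11b+ cDC. In untreated LysoMac against CD11b+ cDC, fatty acid oxidation genes were higher in 6 of 11 and lower in none, among them Hadhb (0.62 ± 0.10) and Cpt2 (0.54 ± 0.14), where 13.6% of all genes were higher and 15.7% lower. Without CD11b+ arrays 4 and 5, 8 of 11 were higher and none lower. Tricarboxylic acid cycle genes were lower in 7 of 18 and higher in 2 there, and in 3 and 2 without those arrays, with Fh1 at -1.15 ± 0.14 and Idh3a at -0.75 ± 0.15. Acod1, whose product itaconate inhibits succinate dehydrogenase, was higher in LysoMac by 4.75 ± 0.34, beside the complex II differences given above.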

How the data were processed

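The authors deposited log2 signals computed by RMA in Affymetrix Expression Console 1.4.1, per the submitters' processing notes. Whether RMA was run on all arrays at once was not stated. After 6617 rows without annotation at the top of the table were set aside, 28939 were matched between array sets by a monotone alignment on mean levels of untreated and R848 cDC, so the matching can favour small responses. A row was accepted (75.1% and 75.9% in the untreated sets) when 3 settings gave 1 partner, no gap lay within 3 rows and 10 neighbours on each side correlated at 0.8 or more. Of rows matched both ways, 99.8% had the same partner. On simulated data at most 0.737% of accepted rows were wrong. That simulation matched R848 CD8a+ to R848 CD11b+ profiles with 500 rows taken out and 500 put in. Both profiles came from 1 array set and 1 treatment, so the rate may not hold for untreated against R848 arrays. A gene took the cluster at its own locus. limma 3.58.1 fitted 1 mean per group over all 25 arrays, with Benjamini-Hochberg adjustment over all genes tested and a threshold of 0.05. In simulated data for LysoMac against CD11b+ cDC with 13254 genes, 94 of 100 changes of 1 log2 unit and 70 of 100 of 0.5 were recovered. The numbers were 87 and 41 for TIM-4+ against TIM-4- LysoMac, and 94 and 60 for CD8a+ against CD11b+ cDC after R848.

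Members and lists were chosen with earlier results of these data known. The text names, per comparison, up to 4 called members in each direction in each complex, complex II and the tissue-restricted forms whatever their result, and up to 4 called genes of a list. Members quoted as flat (Ndufs1, Uqcrb and Cox6c), the core subunits Ndufv1 and Ndufs3 in CD11b+ cDC, and examples beside them were picked after their values were seen. Array medians ran from 4.29 to 4.60. The number of arrays limits the precision.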

Additional observations from a re-analysis of the deposited data

Results flagged for a closer look

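In groups of 5 arrays, R848 CD8a+ cDC array 5 lay far below the others for 5 members: Ndufa2 (8.85, others 9.17 to 9.28), Ndufb5 (7.24, others 7.91 to 8.14), Ndufb6 (8.88, others 9.42 to 9.52), Ndufc1 (8.40, others 8.86 to 9.03) and Uqcrc2 (8.65, others 9.00 to 9.07). All are complex I subunits except Uqcrc2, of complex III. A gap of this size arises by chance in about 1 in 20 groups, and 116 groups were looked at.

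The response to R848 differed between CD8a+ and CD11b+ cDC in 14 of 46 members by the test of the difference itself (limma adjusted p below 0.05), a share of 30.4% beside 32.8% of all genes. At a common median 8 members were called. On the log2 scale, CD8a+ minus CD11b+, the named differences were 1.27 for Ndufa11, 1.17 for Cox6b2, 1.07 for Ndufc1, 1.04 for Cox5a, 0.98 for Ndufb2, 0.94 for Uqcr10, 0.90 for Ndufb8, 0.75 for Cox5b, 0.67 for Uqcrq, 0.56 for Ndufa4l2, 0.47 for Cox6a1 and -0.38 for Cox8c. The array set cannot be told apart from the treatment in any of them.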

How the results depend on the processing

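The counts of called members stayed within 1.5 times the reported count in 95 of 114 pairs of a comparison and an alternative setting, and moved further in 19. Array weights gave 9 for LysoMac against DN cDC (5 reported) and 5 for CD8a+ against CD11b+ cDC after R848 (2). With only the compared groups in the fit, LysoMac against CD11b+ gave 5 (8), DN against CD11b+ 0 (2) and LysoMac against DN 8. A common median gave 15 for untreated CD8a+ against CD11b+ (23) and 8 for the difference of responses (14). Cyclic loess gave 20 for LysoMac against CD11b+, 16 for LysoMac against DN and 5 for CD8a+ against CD11b+ after R848. DN against CD11b+ gave 1 over genes at or above the median level, 0 over genes with a mean of at least 8, and 0 without CD11b+ arrays 4 and 5. Without the acceptance rule for rows, LysoMac against CD11b+ gave 14, TIM-4+ against TIM-4- 1 and the difference of responses 22. Rows were also matched with LysoMac in place of untreated CD11b+ cDC, and with R848 CD11b+ in place of R848 CD8a+ cDC. The other profile of each R848 comparison was kept, so the matching still used part of the groups compared. It gave 31 lower and 3 higher of 47 members for R848 in CD11b+ cDC, and 19 lower and 8 higher of 51 in CD8a+ cDC. The cause of these changes was not tested. The settings on pairs of arrays, on genes with a mean of at least 8 and on clusters chosen without their locus were added after seeing the data.

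Within a set, 8 of 21 same-numbered pairs of arrays deviated together (r over 0.1; -0.112 to 0.172) and 0 of 66 pairs with different numbers did. Not every same-numbered pair did, so the numbers were not taken to pair the samples. The contrast is a hint from the data, not from the design. Between sets, 2 of 44 same-numbered pairs had r over 0.1, beside 23 of 134 pairs with different numbers. The replicate block gave a number the same effect in every array set, so its counts do not test a pairing within sets. With the replicate block the counts were 5 for LysoMac against CD11b+, 0 for TIM-4+ against TIM-4-, 1 for DN against CD11b+, 5 for LysoMac against DN, 3 for CD8a+ against CD11b+ after R848, 38 and 28 for R848 in CD11b+ and CD8a+ cDC, 21 for untreated CD8a+ against CD11b+ and 9 for the difference of responses (9 higher and none lower, where 13 and 1 were reported).

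With 1 array left out, the counts ran from 6 to 9, 0 to 0, 1 to 3, 3 to 7, 2 to 3, 31 to 38, 19 to 29, 18 to 27 and 9 to 18, in the same order. The lowest came without DN array 2 for DN against CD11b+ (1), DN array 1 for LysoMac against DN (3), untreated CD8a+ array 1 for R848 in CD8a+ cDC (19) and R848 CD11b+ array 2 for the difference of responses (9). Of 75 calls on named members, 39 held in every setting run, 36 were lost in at least 1 and none reversed.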
